A study of Mus musculus with 2 samples.

Results

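The genes described here are the heme synthesis enzymes and carriers, chosen by symbol from the list Slc25a38, Alas1, Alas2, Alad, Uros, Urod, Cpox, Ppox and Fech. All 9 symbols were found among the 20938 genes of the deposited tables, and all 9 passed the filter on low values. RNA-seq had been performed on regulatory T (Treg) cells from the spleen on day 7 after transplantation, with 1 library from littermate controls (Ctrl) and 1 library from Foxp3-Mettl14f/+ cKO mice (cKO). In both groups the recipients had been made diabetic with streptozotocin and carried BALB/c islets under the kidney capsule, without antibody treatment. The floxed line had a C57BL/6J background, whereas that of the Foxp3-Cre mice crossed to it is not given in the sources used here. The cKO mice carried 1 floxed Mettl14 allele and a Cre driven by Foxp3, so that deletion was directed to Foxp3-expressing cells, whereas the methods give the littermate controls as Mettl14f/f and the sample labels give them as wild type. The sample labels call the cKO genotype a Foxp3 knockdown; the genotype of the protocol is used here. Age and the number of animals behind each library are not given in the sources used here. Red cells had been lysed in ammonium chloride buffer before the cells were isolated with a magnetic kit for CD4+CD25+ cells.

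Heme is made in a pathway that starts in the mitochondrion, continues in the cytosol and ends in the mitochondrion. The carrier SLC25A38 supplies glycine, ALAS joins it to succinyl-CoA, and further enzymes, among them ALAD, UROS and UROD, turn the product into coproporphyrinogen in the cytosol. CPOX and PPOX then oxidise it to protoporphyrin, and FECH inserts iron. The first enzyme has a pair of genes. Alas1 is used in all tissues and is held down by heme itself, while Alas2, on the X chromosome, is used in developing red cells, where its translation depends on iron. The later enzymes are encoded by single genes that all cells use and that developing red cells use at high levels.

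With 1 library per genotype there was no spread between replicates, so no difference given here has a replicate check. Levels are the deposited values, which are read counts divided by a size factor per library. The values in both libraries were whole multiples of the smallest value, so that reads could be recovered, 20239325 in the Ctrl library and 18327535 in the cKO library. A change is cKO over Ctrl on the log2 scale, after 1 was added to both levels, and its 95% interval is an exact Clopper-Pearson interval on the reads, which covers counting error only. The targeted gene Mettl14, a subunit of the m6A methyltransferase, had 948 reads in the Ctrl library and 652 in the cKO library, with a log2 change of -0.31 (95% interval -0.45 to -0.16), which was 0.01 after the T cell core genes had been set equal and 0.88 after the erythroid markers had. Foxp3, which defines Treg cells, had 1547 and 1361 reads, which gave levels of 1497 in the Ctrl library and 1548 in the cKO library. Its log2 change was 0.05 (95% interval -0.06 to 0.15), an interval that includes 0. That change was 0.37 after the T cell core genes had been set equal and 1.24 after the erythroid markers had. All 12 Treg markers and all 17 T cell core genes that were found had reads in both libraries. Genes that mark other cells also had reads. The red cell genes Slc4a1 and Klf1 had 5640 and 1804 reads in the Ctrl library, and the neutrophil gene S100a9 had 76931.

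The first step and the later steps of the pathway differed in their change between the libraries. As deposited, the levels of Alas2 and Alas1 were 1.03- and 1.12-fold higher in the cKO library, and that of Slc25a38 was 1.07-fold lower. The intervals of the changes of Alas2 and Slc25a38 include 0. With the deposited scaling all 6 later enzymes were lower in the cKO library, a direction that turned for 5 of them (all but Cpox) when the erythroid markers were set equal. With the deposited scaling Alad, Uros, Urod, Cpox and Fech fell by at least 1.5-fold, that is 5 of the 9 members. No member was at least 1.5-fold higher. Of the 16659 genes that passed a minimum mean level of 1, 24.2% were lower by 1.5-fold or more and 17.2% higher. This background was smaller among genes with more reads. Of the 7182 genes with the mean level of Alas2, the lowest member, or more, 5.93% were lower by 1.5-fold or more and 10.2% higher. The median log2 change was -0.64 over the 9 members, against -0.04 over all tested genes and 0.04 over those 7182 genes.

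**Figure D1:**
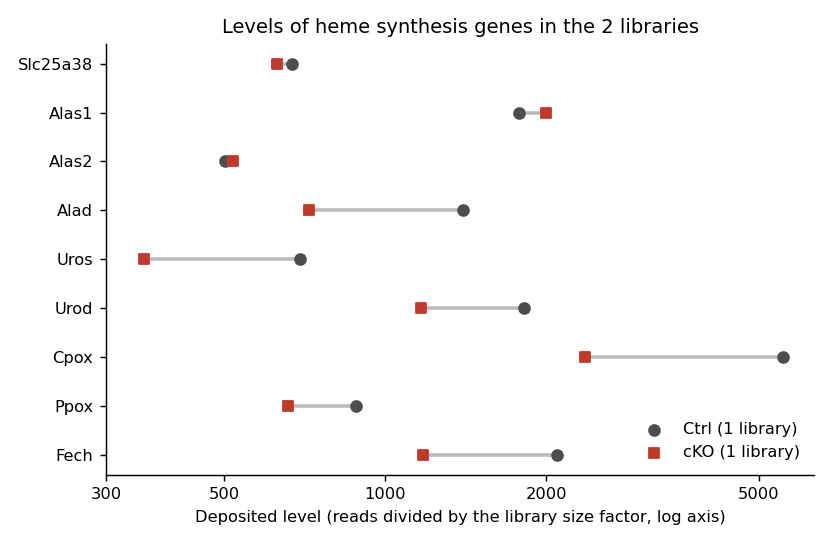
Deposited level of each gene on a log axis in the Ctrl library (circles) and the cKO library (squares), in the order of the pathway. The symbols of Slc25a38, Alas1 and Alas2 lie close together, and those of the later enzymes are apart, with Cpox at 5543 in the Ctrl library and 2362 in the cKO library.

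Alas2 lies on chromosome X of GRCm38 from 150547375 to 150570638 on the plus strand. Its 519 reads in the Ctrl library gave a level of 502, and its 456 reads in the cKO library a level of 519. The 2 libraries were thus close, and the log2 change of 0.05 had an interval (-0.14 to 0.23) that includes 0. The gene Apex2 on the opposite strand shares 311 exonic bases with Alas2, and because the strand setting of the counting is not stated, reads of the overlap cannot be assigned. Apex2 had 321 and 241 reads and a log2 change of -0.18.

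Alas1 is a minus-strand gene of chromosome 9 (106233455 to 106248654). The antisense gene 4930500F10Rik shares 465 of its exonic bases, whose reads likewise cannot be assigned. The level of Alas1 was 1779 in the Ctrl library and 2000 in the cKO library, with a log2 change of 0.17 (95% interval 0.07 to 0.26). It was the member with the highest change, although under 1.5-fold. The difference between Alas1 and Alas2, the change of the first minus that of the second, was 0.12 (95% interval -0.09 to 0.33), so that the housekeeping and the erythroid gene could not be told apart at this depth. There were 3.54 Alas1 reads for each Alas2 read in the Ctrl library and 3.86 in the cKO library.

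Slc25a38, the glycine carrier, lies on chromosome 9 from 120110374 to 120124504. Its level was 669 in the Ctrl library and 628 in the cKO library, with a log2 change of -0.09 (95% interval -0.26 to 0.07). Its change differed from that of Alas2 by -0.14 (95% interval -0.39 to 0.11), an interval that includes 0, and from that of Alas1 by -0.26 (95% interval -0.45 to -0.07), an interval that does not.

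In the cytosol, Alad, which condenses the product of ALAS, lies on chromosome 4 from 62509169 to 62519918. Its level was 1400 in the Ctrl library and 721 in the cKO library, with a log2 change of -0.96 (95% interval -1.09 to -0.82). Uros, which closes the ring of uroporphyrinogen, lies on chromosome 7 from 133686243 to 133710072. Its level was 692 in the Ctrl library and 354 in the cKO library, with a log2 change of -0.97 (95% interval -1.16 to -0.77). Both genes thus stood near the same change, at levels that differ. Urod, which removes carboxyl groups from the ring, lies on chromosome 4 from 116989965 to 116994413. Its level was 1818 in the Ctrl library and 1169 in the cKO library, with a log2 change of -0.64 (95% interval -0.75 to -0.53). The interval of Urod lay above those of Alad and Uros, and it includes 1.5-fold.

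In the mitochondrion, Cpox lies on chromosome 16 from 58670292 to 58717636 and had the most reads of all members. Its 5730 reads in the Ctrl library gave a level of 5543, and its 2077 reads in the cKO library a level of 2362. The level in the Ctrl library was 2.35-fold that in the cKO library, and the log2 change of -1.23 (95% interval -1.30 to -1.16) was the lowest of the 9 members. Ppox, on chromosome 1 from 171275990 to 171281186, had levels of 880 and 657 and a log2 change of -0.42 (95% interval -0.57 to -0.27), so that it was lower in the cKO library but did not reach 1.5-fold. Fech, the last enzyme, had levels of 2096 and 1179 and a log2 change of -0.83 (95% interval -0.94 to -0.72). The place of the enzyme in the cell did not separate the genes, since the mitochondrial enzymes included both the first step and Cpox.

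**Figure D2:**
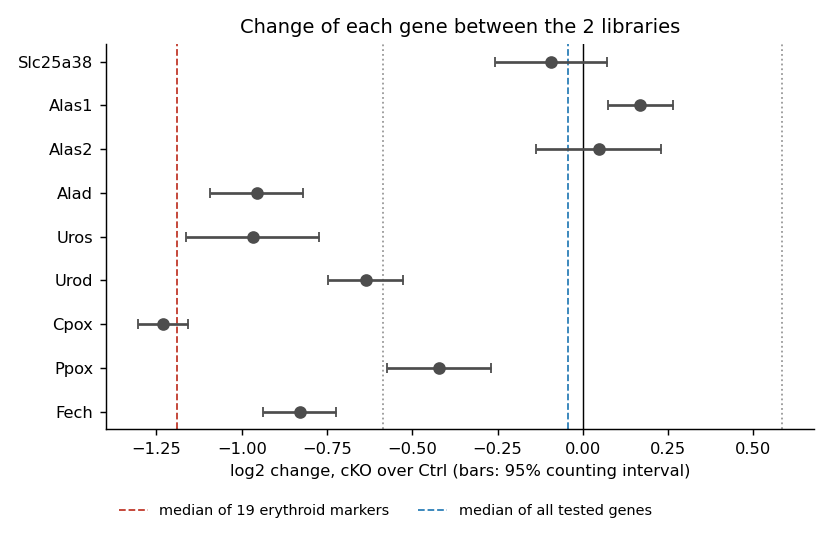
log2 change of each gene, cKO over Ctrl (points), with 95% counting intervals (bars), dotted lines at 1.5-fold in either direction, and dashed lines at the median of 19 erythroid markers (-1.19) and of all tested genes (-0.04). Cpox at -1.23 lies at the erythroid median, and Alas2 at 0.05 and Slc25a38 at -0.09 have intervals that include 0.

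The start regions of Alas2 and Cpox are shown because these genes differ in their changes although both are induced in red cell development, and a short stretch of Alas1 is shown as the only match to NRF1, a factor of mitochondrial genes, among the members. Sequences are from RefSeq on GRCm38.p6. Windows of 250 bases before each listed start site were searched on both strands for the letters AGATAA with its variant AGATAG and TGATAA with its variant TGATAG, read by GATA factors such as GATA1. They were also searched for CCACACCC and the looser CCNCNCCC, read by KLF1, and for the NRF1 motif, whose letters are the capitals of the third sequence. The first form of the KLF1 letters is contained in the second, and matches of CCNCNCCC can overlap each other. Capitals mark the GATA letters in the first 2 sequences, which end before the earliest annotated start of GENCODE vM21 or RefSeq, and the NRF1 letters in the third, which lie 195 to 186 bases before 1 of the RefSeq starts of Alas1.
Alas2, chrX:150547167-150547374, plus strand: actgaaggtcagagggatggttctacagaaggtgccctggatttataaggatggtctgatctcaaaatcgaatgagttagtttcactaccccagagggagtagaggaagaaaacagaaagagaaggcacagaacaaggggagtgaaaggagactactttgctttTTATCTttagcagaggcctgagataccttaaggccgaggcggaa
Cpox, chr16:58669958-58670207, plus strand: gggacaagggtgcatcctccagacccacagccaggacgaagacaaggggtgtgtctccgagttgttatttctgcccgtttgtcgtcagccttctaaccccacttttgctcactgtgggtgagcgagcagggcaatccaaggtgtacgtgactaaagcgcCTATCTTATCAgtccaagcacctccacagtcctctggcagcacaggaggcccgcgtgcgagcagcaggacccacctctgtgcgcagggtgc
Alas1, chr9:106247906-106247935, minus strand: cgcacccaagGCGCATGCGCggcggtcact

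In Alas2 the GATA letters lay 86 to 81 bases before the RefSeq start, on the opposite strand. In Cpox a pair of overlapping GATA matches lay from 91 to 81 bases before the start, also on the opposite strand. Of the 8 members with a window (all but Fech), 3 held GATA letters (Alas2, Cpox and Uros, the last at 1 of its 2 starts), against 29.7% of all 27025 genes with a window and 10 of 12 erythroid markers. The GATA letters thus occurred both in the gene with the lowest change and in Alas2, whose level hardly differed. CCNCNCCC was found in 5 of the 8 members, in 5 of 12 erythroid markers and in 48.5% of all genes. CCACACCC was found in no member, in 0 of 12 erythroid markers and in 3.68% of all genes. The NRF1 letters were found in Alas1 alone among the members and in 0.877% of all genes. A match of letters is a description and not a bound site.

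The rule for these genes asks for erythroid Alas2 against the later enzymes. The change of each later enzyme was below that of Alas2, with an interval of the difference that excludes 0 in all 6 cases. The difference was largest for Cpox, at -1.28 (95% interval -1.48 to -1.08), and smallest for Ppox, at -0.47 (95% interval -0.71 to -0.23). It was -1.01 for Uros, -1.003 for Alad, -0.88 for Fech and -0.68 for Urod. These differences do not depend on the scaling of the libraries, since both genes of a pair were scaled alike. In reads, there were 11.04 Cpox reads for each Alas2 read in the Ctrl library and 4.55 in the cKO library. For Uros, with 1.38 and 0.68 reads for each Alas2 read, the order of these read counts was exchanged. Against Alas1 the difference ranged from -0.59 for Ppox (95% interval -0.77 to -0.41) to -1.40 for Cpox (95% interval -1.52 to -1.28).

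The members therefore divided the reads of the pathway in another way in each library. Together they held 15898 reads in the Ctrl library and 8432 in the cKO library, or 786 and 460 per 1000000 reads. The 6 later enzymes held 80.8% of these reads in the Ctrl library (95% exact Clopper-Pearson interval 80.2 to 81.4) and 67.2% in the cKO library (66.2 to 68.2). Both forms of the first enzyme held 14.8% (14.3 to 15.4) and 26.3% (25.3 to 27.2). Alas2 alone held 3.26% (2.99 to 3.55) and 5.41% (4.93 to 5.91), and Cpox held 36.0% and 24.6%. The share of Urod was nearly the same in both libraries, at 11.8% and 12.2%.

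**Figure D3:**
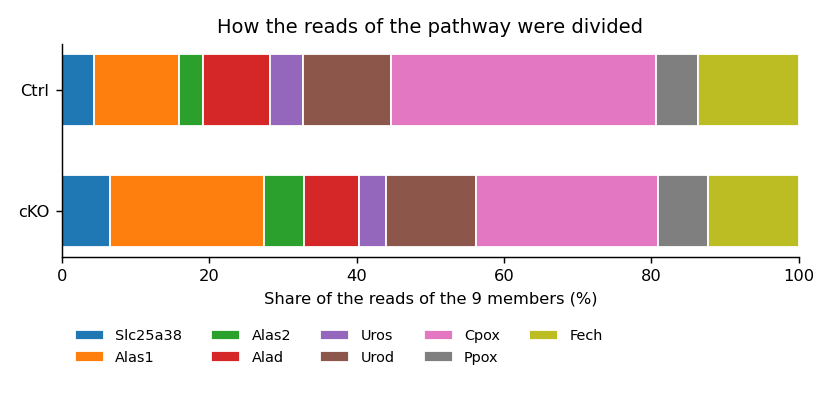
Share of the reads of the 9 members (x axis, percent) that each member held, as stacked bars with 1 bar per library. The bar of Cpox goes from 36.0% in the Ctrl library to 24.6% in the cKO library, and that of Alas1 from 11.6% to 20.9%.

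Levels of different genes were compared as reads per kilobase of exon and per 1000000 reads (RPKM), with exonic lengths from the protein-coding transcripts of GENCODE vM21 and exact Poisson intervals. In the Ctrl library Cpox was highest at 91.4 RPKM, followed by Urod at 62.3 and Alad at 56.3. Then came Ppox at 24.7, Alas1 at 23.0 and Slc25a38 at 19.1. Fech at 14.9, Uros at 14.8 and Alas2 at 12.6 RPKM were lowest. The intervals of Ppox and Alas1 overlapped, as did those of Fech and Uros, whereas that of Alas2 (11.5 to 13.7) lay below that of Uros (13.8 to 15.98). In the cKO library Urod at 37.7 and Cpox at 36.6 RPKM had overlapping intervals, and Alas1 at 24.2 was next after Alad at 27.2. Alas2 at 12.2 RPKM was there above Fech at 7.86 and Uros at 7.13. The order depends on the length used, as for Fech with its long exonic sequence of 7198 bases. By coding length instead, Ppox went from rank 4 to rank 8 in the Ctrl library. In the cKO library Cpox and Urod then stood apart, at 85.3 and 50.9 reads per kilobase and 1000000 reads. Per kilobase of coding sequence Fech was above Alas1 in the Ctrl library (84.6 against 47.2 reads per kilobase and 1000000 reads), and Alas2 was lowest in both libraries at 14.6 and 14.1.

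The later enzymes were set beside a list of red cell genes, of which 19 of 20 were found and none was at 0 in either library. The summed level of these erythroid markers was 59839 in the Ctrl library and 26279 in the cKO library. Their median log2 change was -1.19, with 18 of 19 at least 1.5-fold lower, beside 24.2% of all tested genes. In bulk samples, fewer cells of a type and less RNA per cell cannot be told apart. The part of erythroid RNA in the changes of the heme enzymes was not tested. Slc4a1, the anion exchanger of the red cell membrane, had a log2 change of -1.19, Car2, a carbonic anhydrase, -1.28, and Klf1, the erythroid transcription factor, -1.56. Cpox at -1.23 lay within this range, with 9 of the 19 markers below it. Alas2 lay apart, with 18 of the 19 markers below it. The marker above it, chosen for naming after its value was seen, was Nfe2, also a transcription factor of platelet-forming cells, at 0.09. Tal1 had the lowest change at -3.30, from 2586 and 222 reads.

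Summed, the 6 globin genes, whose products bind the heme, were not lower in the cKO library with the deposited scaling, unlike the later enzymes. Hba-a1 had 1691 reads in the Ctrl library and 1567 in the cKO library and a log2 change of 0.12, and Hba-a2 had 3392 and 3917 reads and a change of 0.44. Hbb-b2 had 1953 and 1801 reads and a change of 0.12, and Hbb-bt had 776 and 634 reads and a change of -0.06. Hbb-bs and Hbb-b1 are near-identical adult beta-globin genes, and their reads were exchanged between the libraries, with 3 and 2626 reads for the former and 2583 and 12 for the latter. The source of this exchange was not tested, and a split of reads by the counting and a difference in the beta-globin alleles of the mice cannot be told apart here. Summed over both, the log2 change was 0.26 (95% interval 0.18 to 0.34). Over all 6 globin genes there were 10398 and 10557 reads, a change of 0.26 (95% interval 0.22 to 0.29). The interval of this sum overlaps that of Alas2 (-0.14 to 0.23), whereas that of Hba-a2 (0.37 to 0.51) lies above it. There were 20.03 globin reads for each Alas2 read in the Ctrl library and 23.2 in the cKO library.

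The T cell core genes had a median log2 change of -0.32, with 2 of 17 at least 1.5-fold lower. Over all tested genes, 24.2% were at least 1.5-fold lower and 17.2% higher, against 5.93% and 10.2% of the 7182 genes with the mean level of Alas2 or more. The Treg markers had a median of 0.19, with 2 of 12 past 1.5-fold upward and 1 downward. The changes of Alad, Uros, Cpox and Fech were below that of every T cell core gene, of which the lowest was Cd3g at -0.66. The summed level of the 12 B cell markers was 8776 in the Ctrl library and 47965 in the cKO library, and that of the 12 red pulp macrophage markers 4147 and 13558. All 24 of these markers were at least 1.5-fold higher. The summed level of the 12 granulocyte markers was 237682 and 336491, with a median change of 0.45, 3 markers past 1.5-fold upward and 2 downward. The part of these cells in the levels of Alas1 and the other members was not tested.

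**Figure D4:**
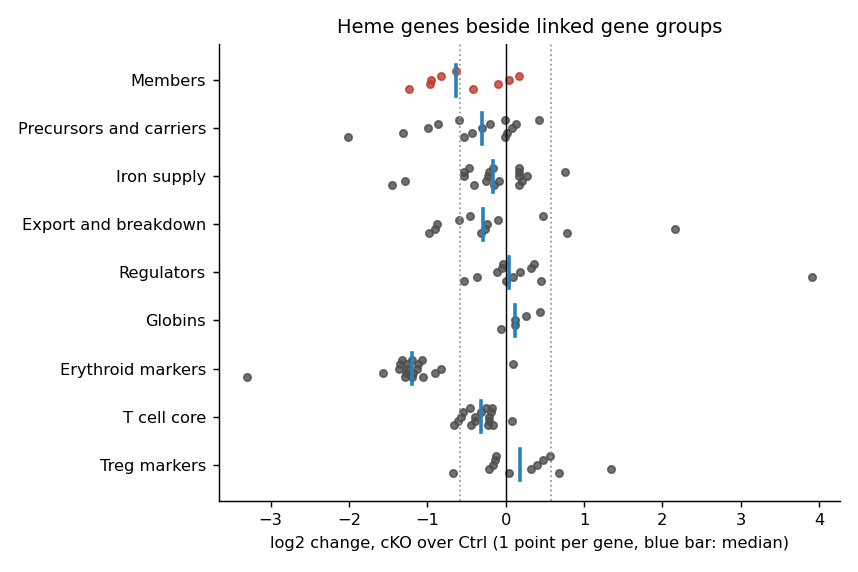
log2 change, cKO over Ctrl, of the tested genes of each group (1 point per gene, members in red, blue bars at the medians, dotted lines at 1.5-fold). Hbb-bs and Hbb-b1 are drawn as 1 point for their sum. The members range from -1.23 for Cpox, within the erythroid markers, to 0.17 for Alas1, while the globins lie between -0.06 and 0.44.

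Genes that work around the pathway were taken from lists written from general knowledge. Of 15 genes for precursors and mitochondrial carriers, 5 were at least 1.5-fold lower and none higher, with a median log2 change of -0.30. Over all tested genes, 24.2% were at least 1.5-fold lower and 17.2% higher, against 5.93% and 10.2% of the 7182 genes with the mean level of Alas2 or more. Slc6a9, a glycine transporter of the cell surface, had 188 reads in the Ctrl library and 39 in the cKO library and a log2 change of -2.01. Abcb10, a mitochondrial transporter needed for hemoglobin synthesis, had 2124 and 728 reads and a log2 change of -1.31. Tmem14c, which helps porphyrin into the mitochondrial matrix, had 2692 and 1264 reads and a log2 change of -0.86. Tspo2, an erythroid relative of the translocator protein, had 301 and 128 reads and a log2 change of -0.995. Suclg1, a subunit of succinyl-CoA synthetase, had one of -0.60. These were the 5 genes that were at least 1.5-fold lower. Slc25a37, mitoferrin 1, which brings iron into the mitochondria of red cell precursors, had 2587 and 2327 reads and a change of 0.08 (95% interval -0.00095 to 0.16). Its change was near that of Alas2 and above that of Abcb10. Shmt2, which makes glycine in the mitochondrion, had a change of -0.20.

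Of 19 genes of iron supply, 2 were at least 1.5-fold lower and 1 was higher, beside 24.2% and 17.2% of all tested genes. These shares were 5.93% and 10.2% among the 7182 genes with the mean level of Alas2 or more. The median log2 change of the 19 genes was -0.16. The genes at least 1.5-fold lower were Tfrc, the transferrin receptor (13678 and 4780 reads, log2 change -1.28), and Steap3, the endosomal iron reductase (1136 and 353 reads, log2 change -1.45). Setting the erythroid markers equal, which adds 1.19 to the log2 change of each gene, put Tfrc at -0.093, no longer past 1.5-fold. Slc25a28, mitoferrin 2, which serves cells of all types, had 412 and 592 reads and rose by 0.75 on the log2 scale. The mitoferrin of all cells and that of red cell precursors therefore both lay above the later enzymes. Glrx5, an iron-sulfur cluster protein, had a change of -0.54. The ferritin genes Fth1 and Ftl1, which store iron, had changes of 0.17 and 0.28, and Pcbp2, an iron chaperone, 0.17.

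Of 12 genes of heme export and breakdown, 2 passed 1.5-fold upward and 4 downward, beside 17.2% and 24.2% of all tested genes. These shares were 10.2% and 5.93% among the 7182 genes with the mean level of Alas2 or more. The median log2 change of the 12 genes was -0.29. Hmox1, heme oxygenase 1, which opens the heme ring and is abundant in red pulp macrophages, had 394 reads in the Ctrl library and 1499 in the cKO library and rose by 2.16 on the log2 scale. Slc40a1, the iron exporter ferroportin, had 1339 and 1960 reads and rose by 0.78 on the log2 scale. Blvrb, a biliverdin reductase that is abundant in red cells, had 1919 and 831 reads and fell by 0.97 on the log2 scale. Abcg2, a porphyrin exporter, had 669 and 304 reads and fell by 0.90 on the log2 scale. The other genes past 1.5-fold downward were Slc46a1, with only 16 and 7 reads, and Flvcr2, with 59 and 33. Both had intervals that include 0 (-2.48 to 0.40 for Slc46a1 and -1.27 to 0.03 for Flvcr2). Slc48a1, a heme transporter of lysosomes, had a change of -0.32. Hmox1 thus moved in the direction opposite to that of Cpox, beside the rise of the red pulp macrophage markers given above, whose part in it was not tested.

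Of 12 regulators, 1 was at least 1.5-fold higher and none lower, beside 17.2% and 24.2% of all tested genes. These shares were 10.2% and 5.93% among the 7182 genes with the mean level of Alas2 or more. The median log2 change of the 12 regulators was 0.05. The gene at least 1.5-fold higher was Ppargc1a, a coactivator of Alas1 in the liver, at 2 and 38 reads, and the ratio of its reads has a wide interval on the log2 scale (2.53 to 7.58). Eif2ak1, the heme-regulated kinase, had 2338 and 1988 reads and a change of -0.00069. Bach1, a repressor released by heme, had a change of 0.45, Atf4 0.10, Lonp1, a mitochondrial protease that acts on ALAS1, -0.53, and Prkaca -0.37.

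The scaling of the libraries sets the zero of every change. With total reads, TMM or median-of-ratios scaling, 5 of the 9 members were at least 1.5-fold lower and none higher. Of the 16659 tested genes, 4424, 4110 and 4079 were lower under these scalings, and 2518, 2768 and 2797 higher. The change of Alas2 was -0.04, 0.02 and 0.03, so that its sign depended on the scaling. When the T cell core genes were set equal, all tested genes moved to a median of 0.27, Alas2 was at 0.36, Cpox at -0.91, and 3 members (Alad, Uros and Cpox) were at least 1.5-fold lower and none higher, beside 19.1% of all tested genes lower and 29.0% higher. On that scale 60.3% of the genes past 1.5-fold were higher, against 41.6% as deposited. With the erythroid markers set equal, that median was 1.14 and that share 84.0%. On this scale 4 members (Alas1, Alas2, Slc25a38 and Ppox) were past 1.5-fold upward, beside 75.9% of all tested genes, and none downward, beside 14.5%. Relative to the markers, Cpox was at -0.04 and Alad at 0.23, whereas Alas2 was at 1.24, Alas1 at 1.36 and Slc25a38 at 1.10. At a threshold of 2-fold on the deposited scale, 1 of the 9 members (Cpox) was lower and none higher, beside 18.1% of all tested genes lower and 10.3% higher. The members' share was below that of all genes, many of which had fewer reads than the members. At 1.5-fold, 24.2% of all tested genes were lower, but 5.93% of the 7182 genes with the mean level of Alas2 or more. The share of those 7182 genes at 2-fold was not computed. Reads of 14863 genes were also put through an exact binomial test (two-sided, Benjamini-Hochberg adjustment), whose subject is these 2 libraries and not the genotypes. At an adjusted p under 0.1 and 1.5-fold it called 2112 genes higher, or 14.2%, and 2683 lower, or 18.1%, and 5 of the 9 members were among the lower genes. With edgeR's exact test and a coefficient of variation set to 0.4, since 1 library cannot give one, 1.54% of these genes were called higher and 3.83% lower, and no member was called.

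**Figure D5:**
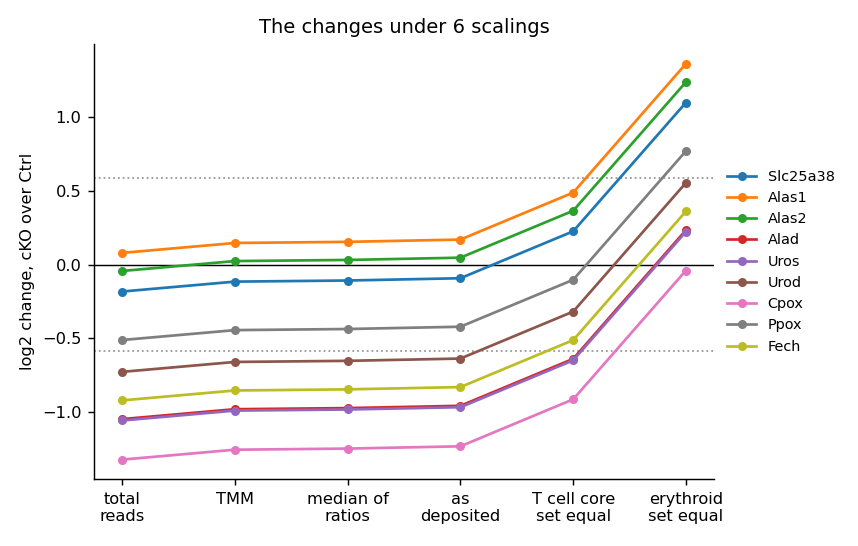
log2 change of each gene, cKO over Ctrl (y axis), under 6 scalings of the libraries (x axis), with dotted lines at 1.5-fold. The distances between the genes are the same under each scaling, while with the erythroid markers set equal Cpox lies at -0.04 and Alas2 at 1.24.

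Many genes had a change like that of Alas2. Of 4265 genes with a mean level within 2-fold of that of Alas2, 741 had a log2 change within 0.1 of it. The 5 nearest were Tifab, Gm20604, Gm7694, Hddc2 and Ap1ar, the last of which was 0.00088 away on the log2 scale, in a comparison over 2 libraries.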

How the data were processed

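Treg cells of the spleen gave 1 RNA-seq library per group. Per the labels and the methods, reads were aligned to mm10 with TopHat; the submitters' processing notes also name STAR, StringTie, DESeq2 and bcl2fastq 2.0, without roles, and annotation and strand setting are not given in the sources used here. The deposited values are a signal, whole read counts that the authors divided by 1 size factor per library (100% of the values were whole multiples of the smallest value, within 0.01). A filter of a mean of 1, a pseudocount of 1 and a fold change of 1.5 were used. The methods also give 0.1 without its quantity, taken here as an adjusted p. Named were all members, all globins and, per list, up to 4 genes by change and 4 by level, with the 5 genes nearest to Alas2. Nfe2 and Flvcr2 were named after their values were seen. Members and lists were chosen with earlier results of these data known, and Ahsp and Trac were not matched. Python 3.11.15 (scipy 1.17.1, pandas 2.3.3), R 4.3.3, edgeR 4.0.16 and DESeq2 1.42.0 were used. The steps were tested on simulated reads that varied by counting error only, with planted changes larger than that of any member. That test cannot show how libraries of different mice vary. The alternatives were other pseudocounts, filters, scalings, thresholds and count tests.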

Additional observations from a re-analysis of the deposited data

How the results depend on the processing

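No paired analysis was possible because the genotypes were sequenced as 1 library each, and none could be left out. With other pseudocounts, no filter or TMM or median-of-ratios scaling, the changes of the members stayed within their counting intervals. With total reads, Cpox moved to -1.32 and the median of the regulators to -0.041. Setting the T cell core genes equal gave changes of 0.49 for Alas1, 0.36 for Alas2, -0.64 for Alad, -0.65 for Uros, -0.32 for Urod and for the median of the members, -0.91 for Cpox, -0.10 for Ppox, -0.51 for Fech and 0.22 for Slc25a38. The medians were then 0.018 for precursors and carriers, 0.15 for iron supply, 0.027 for export and breakdown, 0.37 for regulators, 0.44 for globins and -0.87 for erythroid markers, 3 members were lower, and 3188 genes were lower and 4839 higher. With the erythroid markers set equal, the changes were 1.36 for Alas1, 1.24 for Alas2, 0.23 for Alad, 0.22 for Uros, 0.55 for Urod and for the median of the members, -0.040 for Cpox, 0.77 for Ppox, 0.36 for Fech and 1.10 for Slc25a38; 4 members were higher and 0 lower, among 12649 higher and 2410 lower genes. The medians were then 0.89 for precursors and carriers, 1.03 for iron supply, 0.90 for export and breakdown, 1.24 for regulators, 1.31 for globins and -0.00034 for the markers themselves. A scaling adds the same amount to all genes, which by construction is the cause of these shifts. At 2-fold, 1 of 9 members (Cpox) was lower, among 3019 lower and 1722 higher of 16659 genes. A minimum mean of 10 left 2035 lower genes, the exact binomial test 2683, and the filter at the mean of Alas2, added after seeing the data, 731 higher and 426 lower. The median over the 6 later enzymes, also added, was -0.89. edgeR's exact test, at a coefficient of variation set to 0.4, called 229 genes higher, 569 lower and 0 members lower. With 1 library per genotype that spread is assumed and not measured, so the test cannot decide whether the members differ between the genotypes. Counting intervals were widest for Uros (715 and 311 reads) and Alas2 (519 and 456 reads).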

Other observations

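A list of proteins that use heme, other than the globins of red cells, was not described above. Of 17 genes on this list, 13 passed the filter, with a median log2 change of -0.26, 4 past 1.5-fold upward and 4 downward. Over all tested genes, 17.2% passed 1.5-fold upward and 24.2% downward. The sign of this median is not firm, since it was 0 over all 17 genes without the filter, 0.055 after the T cell core genes had been equalised and 0.93 after the erythroid markers had. Mpo, the myeloperoxidase of granulocyte precursors, had 14255 reads in the Ctrl library and 5937 in the cKO library and a log2 change of -1.03, and Epx, the eosinophil peroxidase, had 195 and 41 reads and a change of -1.99. Cybb, the heme-binding subunit of the phagocyte oxidase, had 9356 and 13694 reads and a change of 0.78, while Cyba, its partner subunit, had a change of 0.56 and Cat, catalase, 0.35. Ptgs2, an inducible cyclooxygenase, had 41 and 565 reads and a change of 3.98. Cygb had 13 and 0 reads, and Tdo2 0 and 10.

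Of the megakaryocyte and platelet markers, 9 of 10 passed the filter, and 6 were at least 1.5-fold higher, beside 17.2% of all tested genes. The median log2 change of the 9 markers was 0.96. Ppbp had 12 and 58 reads and Pf4 58 and 97, whereas Itga2b, which also marks progenitors, had 377 and 329 reads and a change of 0.04. Nfe2, which these cells share with red cell precursors, had a change of 0.09.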
